A study of Oryza sativa with 6 samples.

Results

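In rice anthers, 148 abundant annotated genes had no more than 50% of their lowest wild-type level in any dmd1 library. They were chosen by their measured FPKM values (fragments assigned to a row, divided by its transcript length and by the mapped fragments of the library): the lowest of the 3 WT libraries had to be at least 100 FPKM, and the highest of the 3 dmd1 libraries at most 50% of that lowest WT value. The choice was made among 37830 rows with rice annotation identifiers (OS, chromosome number, G, serial number), within a table of 94013 rows in all. Of 158 rows within both limits, 10 are not counted as members because the choice leaves out 13 identifiers by name; the other 3 of these did not meet the limits. The difference between dmd1 and WT is therefore the way these genes were picked, and it is described here without a test.

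The 6 libraries came from anthers of rice plants aged 3 months, collected between the tetrad and early microspore stages. The dmd1 mutant gave 3 libraries and its WT counterpart gave 3, which the series describes as biological replicates. The labels give neither the lesion nor the cultivar of dmd1, and they name no treatment. No sequence or gene name is shown, since the deposited table pairs no identifier with a name. Of all 37830 OS rows, 1 matched the RefSeq gene table, and 0 of the 148 members did. The missing matches are thus not a trait of the members. They are given by identifier, and their functions were not looked up.

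At these stages the products of meiosis are released from the tetrads as microspores, the cells that become pollen. The tapetum, the innermost layer of the anther wall, nourishes the microspores and secretes lipid precursors and proteins of the outer pollen wall. It then breaks down by programmed cell death. Because each library is made from whole anthers, fewer cells of a type and less RNA per cell cannot be told apart.

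The libraries within a genotype were not alike. WT replicate 2 had the highest FPKM total of all (1287424), and dmd1 replicate 3 the lowest (808227). Over the 25474 rows with at least 1 FPKM in at least 3 libraries, deviations from the genotype mean on the log2(FPKM + 1) scale correlated at r = 0.49 between dmd1 replicate 1 and WT replicate 2. They correlated at r = -0.48 between dmd1 replicate 3 and WT replicate 2. These are correlations across genes, which are not independent replicates. They also depend on each other, since the deviations of a gene cancel out within each genotype. No label gives a batch for this, and its part in the results was not tested; values are given below for single libraries where it touches them.

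Together the 148 genes made up 3.10%, 1.95% and 0.937% of the summed FPKM in dmd1 replicates 1, 2 and 3. Their share in WT replicates 1, 2 and 3 was 12.8%, 14.8% and 12.8%. The other 1029 OS rows of at least 100 FPKM in every WT library held 49.1% to 49.8% of the FPKM in dmd1 libraries and 38.4% to 40.4% in WT libraries. The 10 left-out rows within the limits held 0.735% to 1.79% in dmd1 libraries and 7.45% to 9.73% in WT libraries. Such shares of a total depend on each other, since a lower share of some rows comes with a higher share of others.

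The median member stood at 72.0, 38.1 and 14.6 FPKM in dmd1 replicates 1, 2 and 3, and at 274.6, 398.6 and 261.5 FPKM in the 3 WT replicates. Members ran from 0.236 to 2994 FPKM over the dmd1 libraries and from 100.7 to 16181 FPKM over the WT libraries. In WT, 33 members averaged at least 1000 FPKM and 68 averaged under 300 FPKM.

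**Figure D1:**
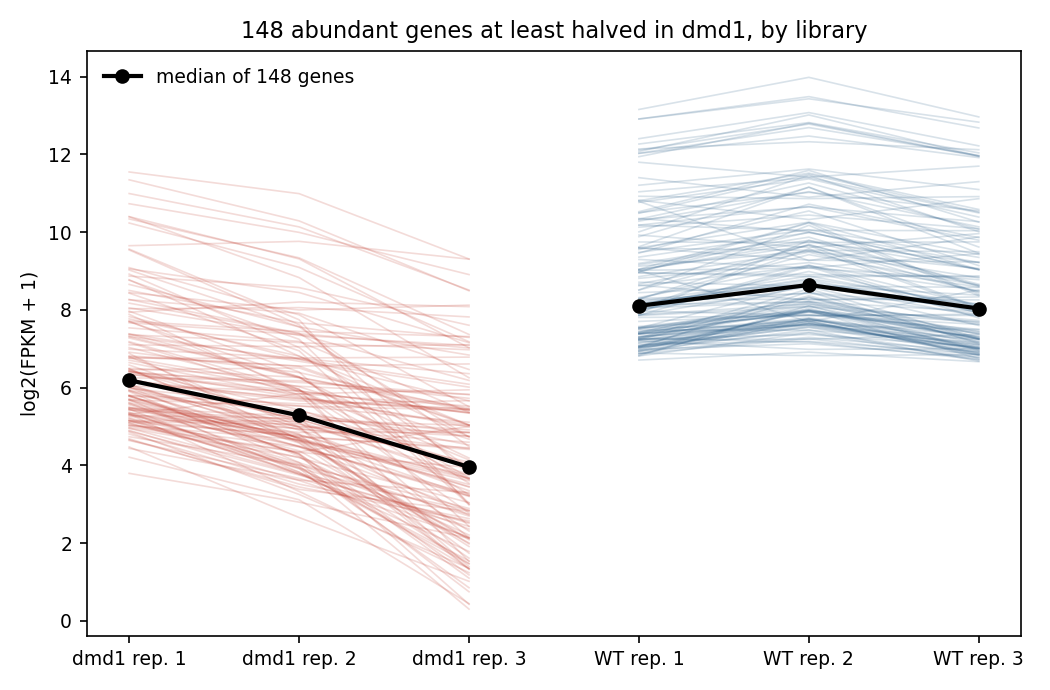
Level of each of the 148 members as log2(FPKM + 1) in the 3 dmd1 libraries (red) and the 3 WT libraries (blue), 1 thin line per gene within a genotype and black points for the median. The libraries of a genotype have no order. The median is lowest in dmd1 replicate 3 (14.6 FPKM) and highest in WT replicate 2 (398.6 FPKM).

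The 12 members with the highest WT mean carried 52.6%, 49.0% and 33.7% of the members' summed FPKM in dmd1 replicates 1, 2 and 3, and 49.6%, 51.0% and 50.03% in the WT replicates. Values per library are in the order replicate 1, 2 and 3 throughout. OS07G0655800 stood at 2603, 1251 and 359 FPKM in dmd1 anthers, against 9126, 16181 and 7989 FPKM in WT anthers. This was the most abundant member in WT, and its mean was 7.90-fold lower in dmd1. OS04G0543700 stood at 1349, 635 and 129 FPKM in dmd1 anthers, against 7692, 11036 and 7276 FPKM in WT anthers, a 12.3-fold lower mean. OS01G0252300 stood at 2994, 2034 and 634 FPKM in dmd1 anthers, against 7705, 11471 and 6561 FPKM in WT anthers. This gene had the highest level of all members in each dmd1 library, and its mean was 4.55-fold lower than in WT.

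Among the rest of these 12, the dmd1 libraries differed more from each other than the WT libraries did. OS02G0678300 stood at 1204, 545 and 144 FPKM in dmd1 anthers, against 5421, 8633 and 4768 FPKM in WT anthers. OS08G0135500 stood at 1347, 455 and 75.4 FPKM in dmd1 anthers, against 4314, 8275 and 3970.0 FPKM in WT anthers. OS08G0135500 spanned 17.9-fold within dmd1, against 2.08-fold within WT. OS09G0539800 stood at 1699, 1019 and 479.7 FPKM in dmd1 anthers, against 4927, 7224 and 4205 FPKM in WT anthers, a narrower span in dmd1 of 3.54-fold. OS01G0112400 stood at 756, 214 and 6.95 FPKM in dmd1 anthers, against 4427, 7035 and 3939.8 FPKM in WT anthers. The dmd1 replicate 3 value of this gene was 109-fold below that of replicate 1. OS04G0573100 stood at 543, 234 and 44.6 FPKM in dmd1 anthers, against 3933, 7146 and 3981 FPKM in WT anthers, an 18.3-fold lower mean in dmd1.

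Of the last 4, 3 had the same arrangement, with dmd1 replicate 3 lowest and WT replicate 2 highest. OS07G0556800 stood at 1295, 647 and 164 FPKM in dmd1 anthers, against 4181, 6605 and 4021 FPKM in WT anthers. OS02G0110000 stood at 2038, 1124 and 364 FPKM in dmd1 anthers, against 4515, 5131 and 4454 FPKM in WT anthers, the smallest difference in means among the 12 at 3.999-fold. OS12G0242700 stood at 745, 196 and 12.7 FPKM in dmd1 anthers, against 4170.1, 5680.0 and 3864 FPKM in WT anthers. Here the lowest dmd1 library was 58.7-fold below the highest. OS06G0194900 stood at 531, 348 and 142 FPKM in dmd1 anthers, against 3561, 2732 and 3322 FPKM in WT anthers. It was the 1 gene of the 12 whose lowest WT value was in replicate 2.

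**Figure D2:**
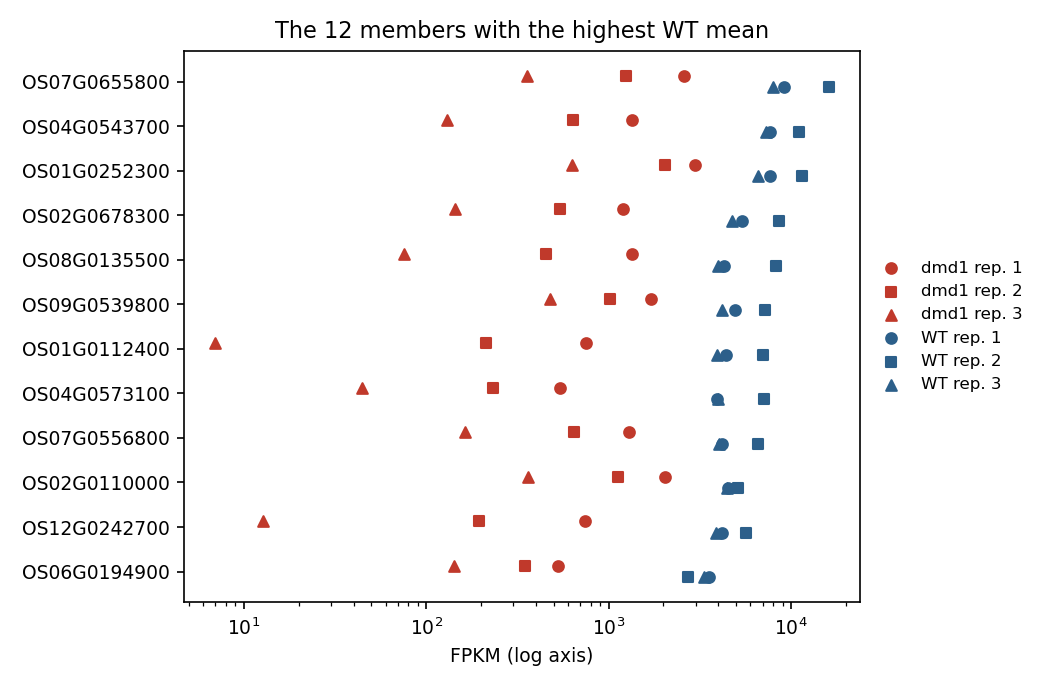
FPKM (log axis) of the 12 members with the highest WT mean, 1 point per library, dmd1 in red and WT in blue, with a symbol for each replicate. All dmd1 points lie left of the WT points of the same gene, as the choice of members requires, and the dmd1 points of OS01G0112400 span 6.95 to 756 FPKM.

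On the ratio that defined the set, the highest dmd1 over the lowest WT value, the members had a median of 0.293 and quartiles of 0.209 and 0.373. Of the 148, 89 reached a ratio of 1/3 and 62 a ratio of 1/4. Folds of means, given next, exceed the inverse of this ratio by construction. Means in dmd1 were 2.27-fold to 30.7-fold lower than in WT, with a median of 8.23-fold and quartiles of 5.28-fold and 11.98-fold. At least a 4-fold lower mean was seen in 122 members, at least 8-fold in 77 and at least 16-fold in 17. Those with a WT mean of at least 1000 FPKM had a median of 9.68-fold lower means (33 genes), those from 300 to 1000 FPKM 8.72-fold (47 genes) and those under 300 FPKM 6.94-fold (68 genes). In the same table, 58 OS rows met the opposite limits, with every dmd1 library at 100 FPKM or more and every WT library at no more than 50% of the lowest dmd1 value.

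**Figure D3:**
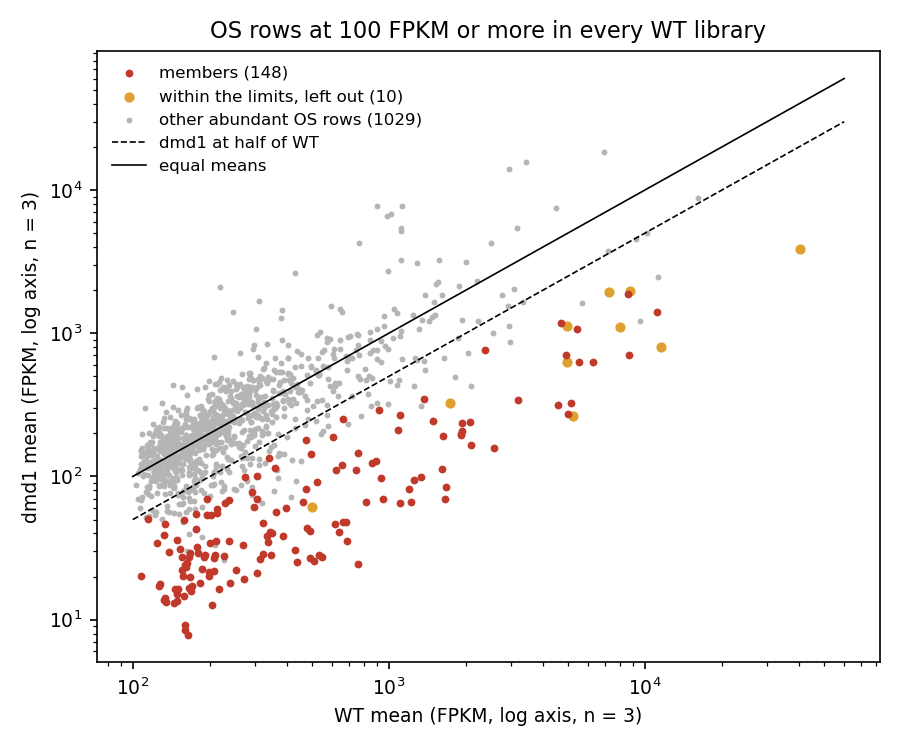
Mean FPKM of 3 dmd1 libraries against mean FPKM of 3 WT libraries (both log axes) for the 1187 OS rows of at least 100 FPKM in every WT library. The 148 members (red) and the 10 rows left out (orange) lie below the dashed line at 50% of WT by construction, and the 1029 other rows (grey) lie on both sides of the line of equal means.

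The 8 members with the lowest ratio of the highest dmd1 to the lowest WT value were spread over all levels. OS06G0131400 stood at 87.1, 90.0 and 31.7 FPKM in dmd1 anthers, against 1809.8, 1282 and 1859.8 FPKM in WT anthers. Its highest dmd1 value was 0.0703 of its lowest WT value, the lowest such ratio of the set. OS02G0597950 stood at 12.9, 7.32 and 3.39 FPKM in dmd1 anthers, against 149, 215 and 128 FPKM in WT anthers. OS06G0237400 stood at 54.9, 18.6 and 0.346 FPKM in dmd1 anthers, against 528, 1215 and 527 FPKM in WT anthers. OS06G0237400 had the largest difference in means of all members, 30.7-fold.

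For 4 of the other 5, the means were 14.6-fold to 19.9-fold lower in dmd1, besides OS04G0573100, given above. OS03G0769500 stood at 34.7, 34.2 and 11.6 FPKM in dmd1 anthers, against 308, 822 and 349 FPKM in WT anthers. OS05G0187100 stood at 165, 76.7 and 10.6 FPKM in dmd1 anthers, against 1448, 2079.7 and 1497 FPKM in WT anthers. OS09G0401000 stood at 63.6, 17.9 and 1.15 FPKM in dmd1 anthers, against 462, 731 and 453 FPKM in WT anthers. Among these 4 genes, only OS03G0769500 had nearly equal values in dmd1 replicates 1 and 2, as OS06G0131400 did above. OS02G0823400 stood at 154, 75.3 and 17.2 FPKM in dmd1 anthers, against 1118, 1387 and 1088 FPKM in WT anthers.

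How much of the WT level was left depended on the dmd1 library. Relative to each gene's WT mean, the median member kept 22.0% in dmd1 replicate 1 (range 5.28% to 47.8%), 10.2% in replicate 2 (2.45% to 42.5%) and 4.10% in replicate 3 (0.0457% to 43.4%). Fewer than 10% of the WT mean were left in 8 members in dmd1 replicate 1, in 73 in replicate 2 and in 108 in replicate 3. In dmd1 replicate 3, 33 members were under 1% of their WT mean, and none was in replicates 1 and 2. The median fold by which dmd1 means were lower was 6.20 without dmd1 replicate 3 and 13.1 without dmd1 replicate 1, against 8.23 with all.

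Within the mutant, the members shared 1 arrangement of libraries, which the choice of members did not use. The highest dmd1 value was in replicate 1 for 142 of 148 members (95.9%), and the lowest was in replicate 3 for 139 (93.9%). Both held, with replicate 2 between, in 136 members (91.9%). Among the 1029 other abundant OS rows, replicate 2 lay between a higher replicate 1 and a lower replicate 3 in 560 (54.4%). The 10 left-out rows within the same limits had it in 9 cases, so the arrangement is not particular to the members. When libraries were scaled to equal FPKM totals, these counts were 123 of 148 and 220 of 1029.

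The size of this difference was also mostly larger in the members than in the other abundant rows. On the log2(FPKM + 1) scale, dmd1 replicate 1 exceeded replicate 3 by a median of 2.18 in members, with quartiles of 1.11 and 3.71. In the other abundant rows the median was 0.29, with quartiles of 0.07 and 0.58. In the 10 left-out rows the median was 1.89. A difference of at least 1 was found in 115 members, in 100 of the 1029 other rows and in 9 of the 10 left-out rows, so the sets overlap. A difference of at least 4 was found in 33 members (22.3%) and in 2 of the 1029 other rows (0.194%). These are descriptions of 2 libraries, and no test applies to them.

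**Figure D4:**
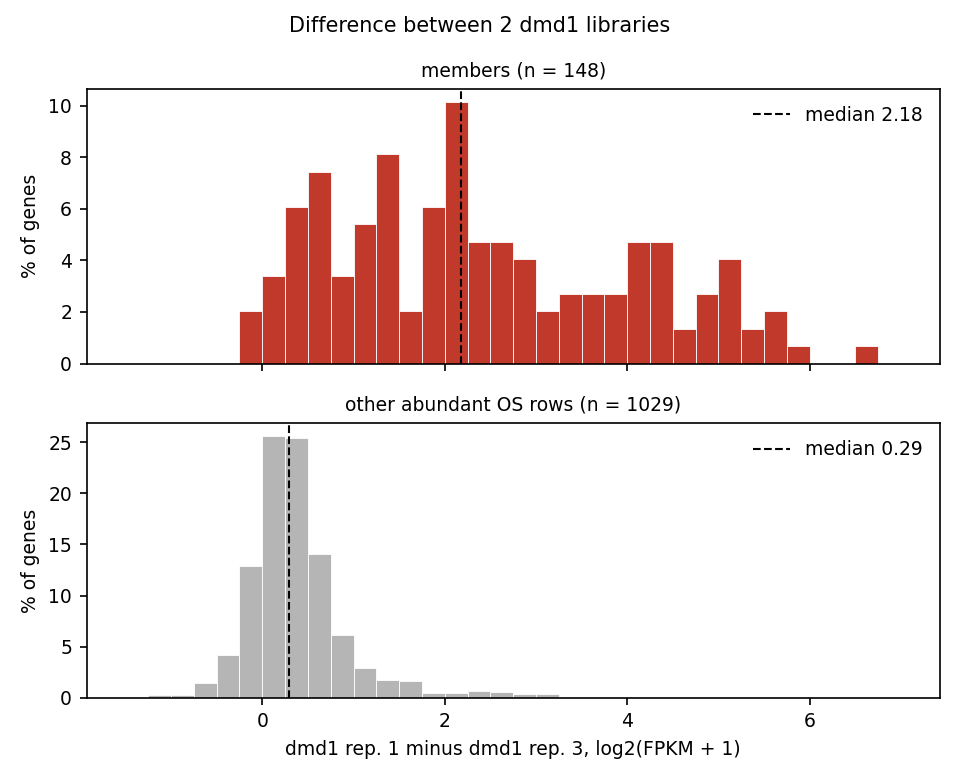
Distribution of the difference between dmd1 replicate 1 and dmd1 replicate 3 in log2(FPKM + 1), as a percentage of the 148 members (top) and of the 1029 other OS rows of at least 100 FPKM in every WT library (bottom). The dashed lines mark the medians, 2.18 and 0.29.

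Ranked by their range over the dmd1 libraries on the log2(FPKM + 1) scale, the first 5 members included OS01G0112400 and OS12G0242700, both among the 12 most abundant. OS07G0585200 stood at 434, 151 and 7.16 FPKM in dmd1 anthers, against 1741, 2647 and 1339 FPKM in WT anthers. OS02G0198700 stood at 249, 83.7 and 4.41 FPKM in dmd1 anthers, against 1292, 2459 and 1078 FPKM in WT anthers. OS03G0212000 stood at 144, 61.3 and 1.89 FPKM in dmd1 anthers, against 1306, 1029 and 522 FPKM in WT anthers. In each of these genes dmd1 replicate 3 was more than 50-fold below replicate 1, while the WT libraries stayed within 2.50-fold of each other. By the ratio of FPKM values alone, which weighs values near 0 more, OS08G0428200 had the widest span at 167-fold, with 0.236 FPKM in dmd1 replicate 3, followed by OS06G0237400 at 159-fold. OS08G0428200 was named after its values were seen. A span of at least 10-fold within dmd1 occurred in 46 members and of at least 50-fold in 10.

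At the other end, 19 members (12.8%) differed by less than 1.5-fold among the dmd1 libraries, against 723 of the 1029 other abundant rows (70.3%). OS12G0616900 stood at 136, 132 and 137 FPKM in dmd1 anthers, against 398, 304 and 322 FPKM in WT anthers. OS09G0252100 stood at 54.8, 47.0 and 49.8 FPKM in dmd1 anthers, against 117, 112 and 114 FPKM in WT anthers. OS08G0327400 stood at 126, 108 and 109 FPKM in dmd1 anthers, against 347, 394 and 332 FPKM in WT anthers. These genes had lower but even levels in the mutant, and their dmd1 means were 2.53-fold, 2.27-fold and 3.13-fold lower than in WT. OS02G0601300 stood at 260.3, 266 and 225 FPKM in dmd1 anthers, against 773, 621 and 599 FPKM in WT anthers. OS03G0297400 stood at 112, 93.1 and 96.7 FPKM in dmd1 anthers, against 307, 309 and 305 FPKM in WT anthers, with a WT span of 1.01-fold.

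Members with even levels in the mutant tended to have the smaller differences from WT. Across the 148 members, the log2 difference between the WT mean and dmd1 replicate 2 correlated with the difference between dmd1 replicates 1 and 3 (Pearson r = 0.79, Spearman rho = 0.81). In the 1029 other abundant rows the values were r = 0.52 and rho = 0.30. The points are genes of the same libraries and are not independent, and the limit on the highest dmd1 value restricts the members, so these values are descriptions.

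Outside the common arrangement were 12 members, 5 of which were highest in dmd1 replicate 2. Besides OS06G0131400, OS02G0601300, OS12G0616900, OS08G0327400, OS03G0297400 and OS09G0252100, they included 2 of the genes above 1000 FPKM in WT. OS11G0696200, named after its values were seen, stood at 803, 868 and 632 FPKM in dmd1 anthers, against 2705, 1909 and 2522 FPKM in WT anthers. OS09G0480900 stood at 245, 294 and 270.4 FPKM in dmd1 anthers, against 1771, 616 and 940.2 FPKM in WT anthers. OS09G0480900 had its highest WT value in replicate 1, not replicate 2. The remaining 4 were OS06G0574900, OS08G0441500, OS10G0522700 and OS12G0575300, named after their values were seen, and their dmd1 values lay between 19.4 and 348 FPKM.

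For the members, dmd1 libraries varied more than WT libraries, with a median range of 2.18 in dmd1 and 0.72 in WT on the log2(FPKM + 1) scale. The choice of members set a lower limit on WT values but only an upper limit on dmd1 values. It thus favoured a wider range in dmd1 than in WT, and this contrast is a description only. For the 1029 other abundant rows the median range was 0.37 in dmd1 and 0.43 in WT. WT replicate 2 was highest in 124 of 148 members (83.8%) and in 711 of the 1029 other abundant rows (69.1%). With equal FPKM totals the counts were 95 and 289. A span of at least 2-fold within WT was found in 37 members (25%) and in 103 other abundant rows (10.0%). OS01G0860500 stood at 47.1, 21.4 and 8.67 FPKM in dmd1 anthers, against 241, 882 and 404 FPKM in WT anthers, the widest WT span at 3.67-fold. OS01G0361700 stood at 209, 61.0 and 11.4 FPKM in dmd1 anthers, against 789, 2283 and 701 FPKM in WT anthers. In both genes WT replicate 2 stood above the other WT libraries by more than their own difference. OS04G0645500 and OS02G0597900, described below, had WT spans of 3.56-fold and 3.52-fold, wider than the 3.26-fold span of OS01G0361700.

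Members higher in WT replicate 2 than in the other WT libraries tended to be those with a large difference between dmd1 replicates 1 and 3. Over the 148 members the 2 log2 differences correlated at r = 0.45 (rho = 0.48). Over the 1029 other abundant rows they correlated at r = 0.53 (rho = 0.62). The relation was thus not confined to the members. It is a description across genes that share the same libraries and their depth, and the 2 differences use different libraries.

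**Figure D5:**
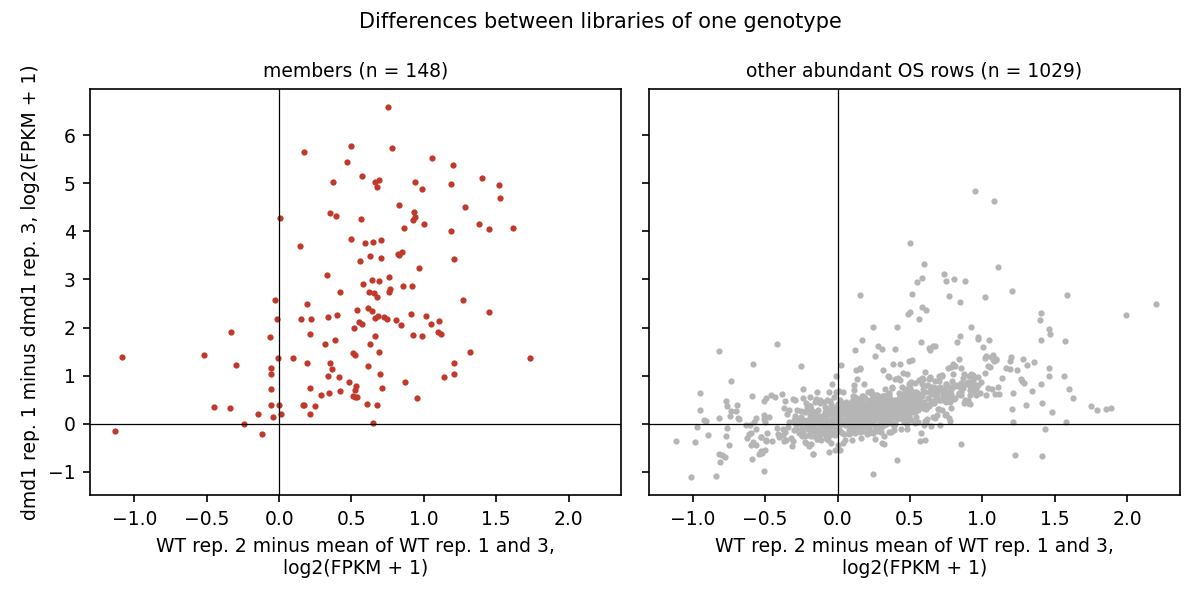
Difference between dmd1 replicates 1 and 3 against the difference between WT replicate 2 and the mean of WT replicates 1 and 3, both in log2(FPKM + 1), 1 point per gene, for the 148 members (left) and the 1029 other abundant OS rows (right). Members reach 6.57 on the vertical axis, and both panels slope upward (r = 0.45 and r = 0.53).

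Subsets of the libraries can also be set side by side across genotypes. Deviations from the genotype mean correlated between dmd1 replicate 1 and WT replicate 2 (r = 0.49). Those of dmd1 replicate 3 correlated with WT replicates 1 and 3 (r = 0.33 and 0.35). Those of dmd1 replicate 2 followed no WT library (r = 0.0113, -0.0123 and 0.0063 with WT replicates 1, 2 and 3). The deviations of a gene cancel out within a genotype, so these correlations are not separate observations. For dmd1 replicate 1 against WT replicate 2, the median member was 6.15-fold lower in dmd1, and the smallest difference was 2.05-fold. For dmd1 replicates 2 and 3 against WT replicates 1 and 3, the median was 11.02-fold and the smallest difference was 2.40-fold. These pairs were formed after the data were seen, and no test applies to them. The choice of members, with every dmd1 value at most 50% of the lowest WT value, fixed the lower limit of these differences in advance.

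Near the limits, membership rested on small differences. OS05G0461300 stood at 265, 162 and 135 FPKM in dmd1 anthers, against 557, 728 and 535 FPKM in WT anthers, a ratio of 0.495 between the highest dmd1 and the lowest WT value. The ratios of OS09G0252100, OS04G0653200 and OS09G0480900 were 0.488, 0.487 and 0.477. Just outside were OS02G0695800 and OS07G0187900, each with a ratio of 0.501. The lowest WT values just inside the abundance limit were 100.7 FPKM in OS01G0639900, 101.7 in OS04G0556000, 104.1 in OS02G0685200 and 104.9 in OS04G0611200, and the nearest outside were 97.0 in OS09G0381400 and 93.3 in OS02G0584700. With a ratio limit of 1/3, 89 members were left, and with a WT minimum of 50 or 200 FPKM there were 219 or 87.

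In the fit over all 25474 tested rows (limma on log2(FPKM + 1), called at adjusted p below 0.05 with a log2 change of at most -1), 130 of the 148 members were called lower in dmd1, against 3.54% of all tested rows. All 148 members passed the filter on low values. Since the same contrast chose the members, nothing is read from this count. The median log2 change was -3.27 over the members (range -5.94 to -1.17) and 0.12 over all tested rows. The 18 members not called had adjusted p values from 0.0506 to 0.0842 in limma. Their median range over the dmd1 libraries was 4.62 on the log2 scale, against 2.03 in the 130 called members. Called members numbered 42 without dmd1 replicate 2, 50 without WT replicate 1, 59 without WT replicate 3 and 80 without WT replicate 2, while the median log2 change in these fits ran from -3.39 to -3.05. Calls over all tested rows also fell in these fits, to 326, 256, 396 and 575 in the same order, against 903 with all libraries. Without dmd1 replicate 1, 145 members and 883 rows were called, and without dmd1 replicate 3, 133 members and 630 rows.

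The chromosome number in the identifier covered all 12 chromosomes, with 22 members on chromosome 3, 20 on chromosome 1 and 2 on chromosome 10. As a share of the abundant OS rows of a chromosome, members made up 4.65% on chromosome 10 and 18.6% on chromosome 11, with the other chromosomes between. These shares rest on 2 and 8 members.

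Only 9 members had another member as the next identifier in the table, in 3 pairs and 1 run of 3. The run of 3 was on chromosome 6. OS06G0131300 stood at 108, 64.1 and 24.6 FPKM in dmd1 anthers, against 704, 1685 and 928 FPKM in WT anthers. OS06G0131350 stood at 50.4, 25.2 and 9.91 FPKM in dmd1 anthers, against 527, 804 and 267 FPKM in WT anthers. With OS06G0131400, given above, all 3 were at least 16.9-fold lower in dmd1 by their means, but OS06G0131400 was lowest in WT replicate 2, where OS06G0131300 and OS06G0131350 were highest.

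The 3 pairs were on chromosomes 2, 4 and 12. OS02G0597900 stood at 73.8, 38.7 and 27.8 FPKM in dmd1 anthers, against 365, 1156 and 329 FPKM in WT anthers. Its neighbour OS02G0597950, among the 8 lowest ratios above, was also highest in WT replicate 2. OS04G0645500 stood at 117, 24.4 and 2.77 FPKM in dmd1 anthers, against 501, 1206 and 339 FPKM in WT anthers. OS04G0645600 stood at 403, 188 and 113 FPKM in dmd1 anthers, against 1434, 2874 and 1462 FPKM in WT anthers. OS04G0645500 had a 42.2-fold span within dmd1, and OS04G0645600 a span of 3.55-fold. OS12G0637000 stood at 94.8, 33.3 and 3.97 FPKM in dmd1 anthers, against 496, 479 and 459.8 FPKM in WT anthers. OS12G0637100 stood at 38.9, 9.07 and 1.37 FPKM in dmd1 anthers, against 116, 209.5 and 114 FPKM in WT anthers. Both chromosome 12 genes had more than a 20-fold span within dmd1. Neighbouring gene models may overlap, the strand setting of the counting is not given in the sources used here, and reads from overlapping models cannot be told apart.

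The rows next to members in identifier order that were not members, nor left out, give a measure that the rule did not use. There were 283 such rows, of which 188 passed the filter. In limma, 23 of them were called lower in dmd1 (12.2%), against 3.61% of all tested OS rows, and 2 were called higher, against 2.73%. Over all 25474 rows, 47.2% of calls were higher in dmd1, and this share was 62.9% with equal FPKM totals, which moved the median log2 change of all rows to 0.29, and 35.8% with median-of-ratios scaling. The median log2 change of the neighbouring rows was -0.12, while that of all tested OS rows was 0.12. Of the 23, 6 have identifiers that do not end in 00, against 28 of the 188 tested. The number called lower was 6 without WT replicate 1, 9 without WT replicate 3 and 9 without dmd1 replicate 2, where 1.11%, 1.70% and 1.31% of the tested OS rows were called.

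The 3 neighbours described here were named after their values were seen. OS03G0703300, next to the member OS03G0703200, stood at 5.49, 2.17 and 0.320 FPKM in dmd1, against 69.4, 134 and 77.0 FPKM in WT (log2 change -4.91 ± 0.58 SE, limma adjusted p = 0.00695). OS05G0169700, next to OS05G0169600, stood at 18.9, 7.57 and 1.26 FPKM in dmd1, against 138, 144 and 88.4 FPKM in WT (log2 change -4.06 ± 0.75 SE, limma adjusted p = 0.0214). Both were below the abundance limit in at least 1 WT library, and both had the members' arrangement of dmd1 libraries. The call of OS05G0169700 was lost without any 1 of the WT libraries (limma adjusted p = 0.0511 to 0.0846) or without dmd1 replicate 2 (limma adjusted p = 0.0764). OS07G0655851, numbered between the members OS07G0655800 and OS07G0655900, stood at 2427, 717 and 508 FPKM in dmd1, against 6372, 19105 and 3242 FPKM in WT. It was not called (limma adjusted p = 0.0626, and 0.0330 with equal FPKM totals), and its WT replicate 2 value stood far above the other two. Whether these rows share reads with their neighbours was not tested.

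Marker genes were paired with identifiers from general knowledge, and the pairing was not checked against an annotation. The 6 markers listed for tapetum regulators summed to 1603, 1518 and 1348 FPKM in dmd1 and to 1531, 1699 and 1200.2 FPKM in WT, so the groups overlapped. One of them, listed as TIP2, was called higher in dmd1 (log2 change 1.79 ± 0.14 SE, limma adjusted p = 0.00326), and none was called lower. The sum rests mostly on the row listed as TDR. This row, for a basic helix-loop-helix factor of the tapetum, was at 968, 871 and 802 FPKM in dmd1 and at 967, 1073 and 759 FPKM in WT. The row listed as PTC1 was at 90.0, 71.2 and 14.6 FPKM in dmd1 and at 135, 218 and 85.9 FPKM in WT, with the members' common arrangement in both genotypes (log2 change -1.55 ± 0.70 SE, limma adjusted p = 0.190). The 4 meiocyte markers summed to 29.1, 31.6 and 29.8 FPKM in dmd1 and to 18.9, 22.6 and 18.8 FPKM in WT, so the groups did not overlap. Of the 4, 3 were higher in dmd1 at an adjusted p of 0.0147 to 0.0404 in limma, but below the limit on the log2 change. The other, listed as MEL1, went the other way and was not called (log2 change -0.36 ± 0.20 SE, limma adjusted p = 0.280). It was at 3.43, 3.88 and 2.89 FPKM in dmd1 and at 4.085, 6.20 and 3.884 FPKM in WT. Neither late pollen marker exceeded 0.194 FPKM in any library.

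Green tissue markers were lower in sum in dmd1, with no overlap between the groups. The 3 listed for it summed to 71.8, 64.6 and 106 FPKM in dmd1 and to 268.9, 141 and 254.1 FPKM in WT, and 1 of the 3, listed as CAB2R, was called lower (log2 change -1.66 ± 0.31 SE, limma adjusted p = 0.0223). That call was lost without WT replicate 1, WT replicate 3, dmd1 replicate 1 or dmd1 replicate 2, at adjusted p values of 0.0737, 0.0766, 0.0667 and 0.0892 in limma. The sum rests mostly on the rows listed as CAB1R and CAB2R. The row listed as RBCS was at 10.5, 6.57 and 3.76 FPKM in dmd1 and at 10.7, 5.34 and 11.5 FPKM in WT, lowest in dmd1 replicate 3 (log2 change -0.39 ± 0.39 SE, limma adjusted p = 0.550). Within a genotype, the sum was highest in dmd1 replicate 3, where most members were lowest, and lowest in WT replicate 2, where most members were highest. The part of tissue makeup in the members' levels was not tested.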

How the data were processed

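Anther RNA of 3 dmd1 and 3 WT libraries was analysed from 1 table of FPKM values deposited by the authors, with fastp, HISAT and RSEM and the build IRGSP-1.0 named in the submitters' processing notes. Tool versions, annotation, strand setting and filters were not given in the sources used here. FPKM are not counts, so no counting interval is given. Ratios shared by low values put dmd1 replicate 2 at 1.20, WT replicate 2 at 0.859 and WT replicate 3 at 1.09 times the depth of WT replicate 1, and gave no clear value for dmd1 replicates 1 and 3. No pair of libraries held identical values.

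Rows with at least 1 FPKM in at least 3 of 6 libraries were transformed to log2(FPKM + 1) and fitted with limma 3.58.1 in R 4.3.3 (trend and robust options, Benjamini-Hochberg adjustment). Calls needed an adjusted p below 0.05 and a log2 change no smaller in size than 1. The fit was tested on simulated data with independent noise for each row and library. That simulation lacks the deviations that libraries shared, so it could not examine calls under them. Alternatives were other limits of the selection, another pseudocount, no filter, 3 scalings of the libraries, a replicate block, and leaving out libraries. Ranges and ratios of members are on FPKM unless a log2 scale is named, and a log2(FPKM + 1) change understates that of low values. The p-values measure the spread between these libraries only.

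The members and lists were chosen with earlier results of these data known. Genes named are members with the 12 highest WT means, the 8 lowest and 4 highest ratios of highest dmd1 to lowest WT value, the 4 lowest WT minima, the 5 widest and 5 narrowest dmd1 ranges and the 4 widest WT ranges on the log2(FPKM + 1) scale, and those next to another member. This gave 43 members. Members whose values are given outside these lists are marked as named after their values were seen. Naming by product class was not possible, because 1 of the 37830 OS rows and 0 members matched the reference table. The replicate numbers were not taken to pair libraries.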

Additional observations from a re-analysis of the deposited data

How the results depend on the processing

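The number of members was 89 with a ratio limit of 1/3 and 87 with a WT minimum of 200 FPKM. It was 159 with equal FPKM totals, 186 with median-of-ratios scaling and 164 with quantile normalization, of which 137, 148 and 137 were among the 148. Leaving out 1 library gave 149 to 199, and by construction this number could not fall below 148. The number of members called lower ran from 42 to 145, and that of all tested rows from 256 to 883, over the fits without 1 library, which have fewer samples. Rows next to members called lower ran from 6 to 25 in these fits. With the replicate block, 112 members and 749 rows were called; same-numbered libraries deviated together at r = -0.346, -0.0123 and 0.346, so the numbers were not taken to pair libraries. Without the filter on low values 101 members and 703 rows were called, and with a pseudocount of 0.1 FPKM 118 members and 885 rows. The main fit called 130 members and 903 rows. Without a fold minimum, 1319 tested rows passed. Across the 645 alternative fits of the 43 named members, 105 lost a call and 29 gained one, and the choice of members fixes their direction in the fits without 1 library. Added after the data were seen were a fit on OS rows only and one with no WT replicate 2 or dmd1 replicate 1. The fit on OS rows called 136 members and 850 rows. The fit without these 2 libraries called 121 members and 734 rows, with 215 members under the rule. The number of libraries limits precision, and values under 1 FPKM, found for 5 members in dmd1 replicate 3, are the least certain.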
